A study of Loxodonta africana with 12 samples.

Results

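Plasminogen activation, coagulation and endothelin genes were followed in blood cells of the African elephant (Loxodonta africana) through 8 members, namely PLAU, PLAUR, PLAT, SERPINB2, F3, THBD, THBS1 and EDN1. The members are the rows of both deposited count tables that carry these symbols. All 8 symbols were found among the 16406 genes, and each of the 8 passed the filter on low counts in the 3 tested comparisons and in untreated cells over time. A stricter minimum of a mean of 1 CPM, and the fit without the 5 h libraries numbered 3, dropped PLAT at 5 h. The set was assembled because SERPINB2 and EDN1 had shown some of the steepest drops with time in untreated cells. Values of the untreated 24 h against 5 h contrast are therefore given as a description, with no test.

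Plasmin, the protease that dissolves fibrin, is made from plasminogen by the urokinase-type activator (PLAU), which works bound to its receptor (PLAUR), or by the tissue-type activator (PLAT). Both activators are inhibited by PAI-2 (SERPINB2). Monocytes and macrophages are known sources of PLAU, PLAUR and SERPINB2. Coagulation is started by tissue factor (F3), which activated monocytes can display, and is restrained by thrombomodulin (THBD), a surface cofactor that turns thrombin towards protein C activation. Thrombospondin-1 (THBS1) is a secreted matrix glycoprotein that activated platelets and macrophages release. Endothelin-1 (EDN1) is a vasoconstrictor peptide best known from endothelium and also made by macrophages.

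Total RNA of blood was sequenced in 12 libraries, with 3 libraries in each of 4 groups. The groups were untreated cells at 5 h, cells irradiated with 2 Gy at 5 h, untreated cells at 24 h and cells irradiated with 2 Gy at 24 h. Nothing in the labels tells whether the 3 libraries of a group were separate animals, draws or cultures, so a p-value here speaks of variation among libraries that may be technical in part. The study asked which genes differ in expression between irradiated and untreated cells.

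Depth was 31059389 to 38138163 counts per library at 5 h and 18022475 to 37356501 at 24 h. Levels are in CPM, counts relative to a library total that was scaled over the 12 libraries by the trimmed mean of M-values, and are given as mean ± SD of n = 3 libraries. Of 10 monocyte and macrophage markers, 6 were in the tables. Their summed level was 3051 to 3945 CPM in untreated and 3665 to 4708 CPM in irradiated libraries at 5 h, and 3280 to 4046 against 6017 to 6962 CPM at 24 h. The 8 neutrophil markers summed to 1451 to 2019 CPM over both groups at 5 h, 256 to 376 CPM in untreated and 544 to 628 CPM in irradiated libraries at 24 h. Most of the sum in untreated cells at 5 h was MMP9, with 1282 ± 260 CPM, against 153 ± 101 CPM at 24 h. S100A12, S100A9 and S100A8 had means of 433, 58.7 and 51.3 CPM in untreated cells at 5 h. CSF3R, CXCR2, MPO and ELANE had 4.66, 8.32, 1.68 and 3.93 CPM there. The 5 B cell markers summed to 182 to 225 CPM in untreated and 14.8 to 22.3 CPM in irradiated libraries at 24 h, where all 5 were called lower (median log2 fold change -3.22). Of 4 T cell markers, 1 was called lower at 24 h, with sums of 343 to 382 against 217 to 282 CPM. Over all genes tested in that comparison, 4.94% were called lower. No marker of the monocyte, neutrophil, platelet, T cell, B cell or endothelial lists was at 0 throughout a group. The part of these cell types in the members' irradiation values was not tested. In bulk RNA, fewer cells of a type and less RNA per cell cannot be told apart.

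Measured per kb of exon length, the members spanned a wide range of levels in untreated cells at 5 h. SERPINB2 was the highest, at 1272 ± 557 CPM per kb, which placed it 88th of the 16406 genes. EDN1 followed with 255 ± 166 and PLAUR with 230 ± 4.50 CPM per kb, and these neighbours do not differ beyond their spread. THBD stood at 88.9 ± 7.91, THBS1 at 42.0 ± 42.4 and PLAU at 15.6 ± 3.36 CPM per kb, and the libraries of THBS1 spread widely enough to reach those of both neighbours. F3 and PLAT were near the floor, at 1.87 ± 0.964 and 0.196 ± 0.0616 CPM per kb. In untreated cells at 24 h the order was PLAUR, THBS1, PLAU, THBD, SERPINB2, EDN1, PLAT and F3. PLAUR then had 52.1 ± 4.89 CPM per kb, SERPINB2 8.81 ± 2.31 and rank 8529, and EDN1 3.29 ± 1.56 and rank 10246. From THBS1 (19.5 ± 15.4 CPM per kb) to SERPINB2, and from PLAT to F3, each gene lay within 1 SD of the next in that order. Irradiated cells had the same order as untreated ones at 5 h, and at 24 h the order PLAUR, THBS1, THBD, SERPINB2, PLAU, EDN1, PLAT and F3, from 73.2 ± 4.85 to 1.72 ± 0.337 CPM per kb.

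**Figure D1:**
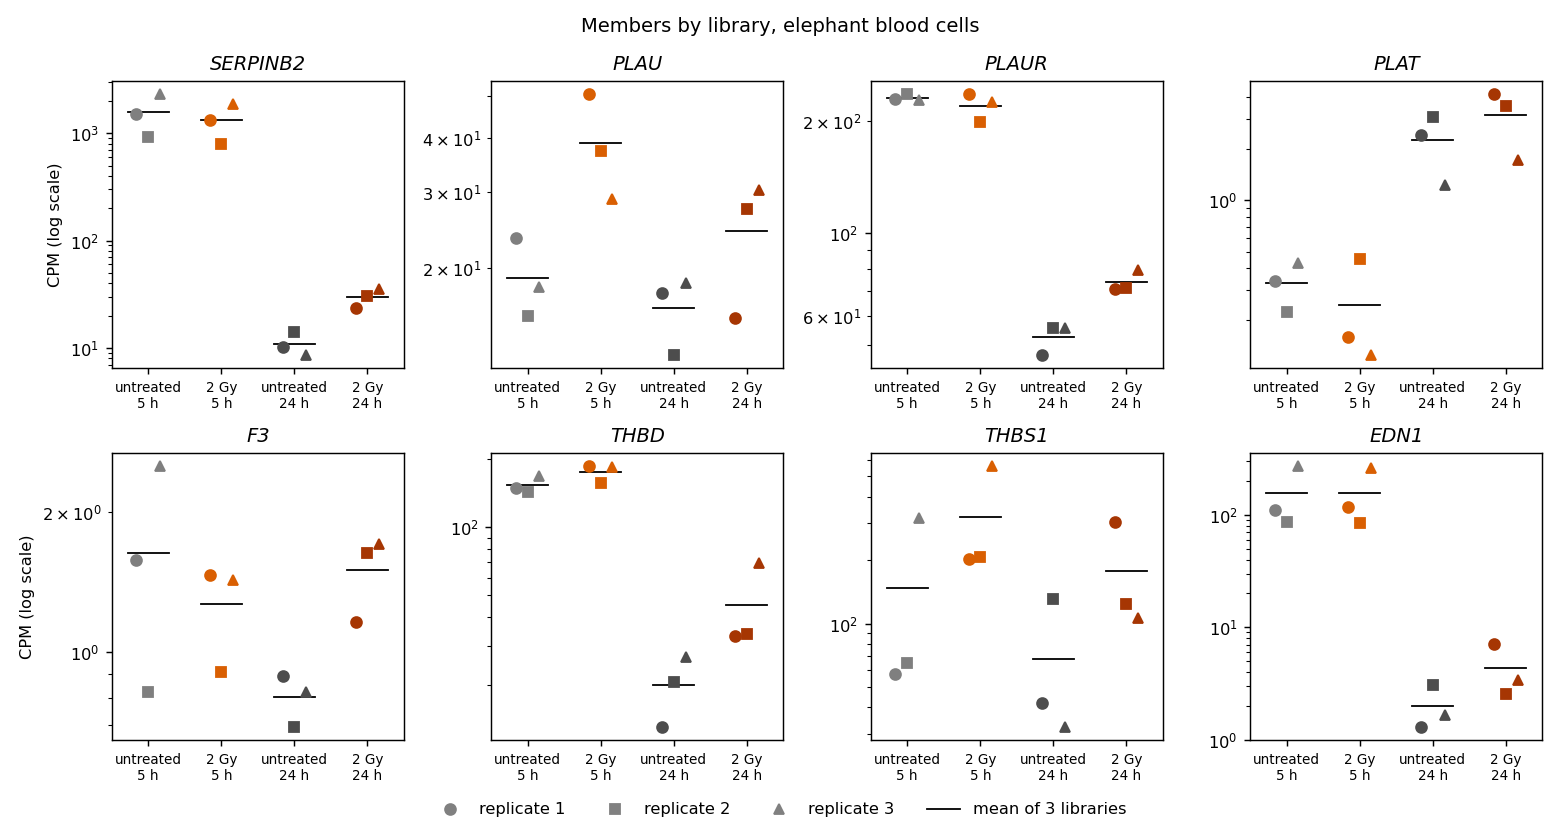
CPM of each member in the 12 libraries (log scale, each panel with its own range), by group on the horizontal axis, with replicate numbers as symbols and a line at the mean of 3 libraries. SERPINB2 stands at 786 to 2313 CPM in the 6 libraries at 5 h and at 8.54 to 35.6 CPM in the 6 at 24 h, while PLAU stays between 12.6 and 50.5 CPM.

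The members' largest log2 fold changes lay between the times. In irradiated cells, whose libraries were not used to choose the set, 4 of 8 members were lower at 24 h than at 5 h and 1 was higher (edgeR quasi-likelihood test, Benjamini-Hochberg adjusted p below 0.05 over all genes tested, here termed called). Of all 14028 genes tested, 30.6% were called lower and 35.3% higher, so changes between the times were common. Separation of the times is stated below for single genes without its share over all genes, and is not read as particular to them. The members' median log2 fold change was -1.12, against 0.10 over all genes. SERPINB2 (log2 fold change -5.39) and EDN1 (-5.04) fell most, and ranked 4th and 10th lowest of 14028. Same-numbered irradiated and untreated libraries deviated together at 5 h, so the falls of these genes may not be independent of the choice. Without composition scaling the median of all genes rose by 0.34 and the calls became 6968 higher and 2630 lower, against 4956 and 4293. All 8 members kept their direction and their side of the threshold in that setting.

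In untreated cells 7 of 8 members had negative log2 fold changes from 5 h to 24 h, and PLAT was positive. The set was chosen on this contrast, in which 30.5% of 13445 genes were called lower and 32.6% higher, and nothing is read from the members' values. SERPINB2 ranked 2nd lowest and EDN1 6th lowest.

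After irradiation all 8 members had positive log2 fold changes at 24 h, with a median of 1.01 against 0.01 over all genes. Of the 8, 2 were called, SERPINB2 and PLAUR, both higher. SERPINB2 and EDN1 were picked out partly for low values in these same untreated libraries, which raise the ratio of irradiated to untreated. Over all 14373 genes tested, 1.8% were called higher and 4.94% lower. The groups did not overlap in 4 members, SERPINB2, PLAUR, THBD and F3, all higher in irradiated libraries. Such separation with higher irradiated values was found in 8.7% of all genes.

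At 5 h edgeR called 0 of 8 members after irradiation, where 1.6% of 12969 genes were called. PLAU alone of the 8 had an unadjusted p below 0.05, and DESeq2 called 1 member, also PLAU. With the replicate number as a block, 3 members were called higher (PLAU, THBS1 and THBD) and 1 lower (SERPINB2), beside 10.6% of all genes called higher and 9.92% called lower in that fit. Irradiated and untreated libraries of the same number deviated together at 5 h, so the blocked values are given beside these results.

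The irradiation comparisons use the untreated libraries on which SERPINB2 and EDN1 were picked out, and are for these genes not independent of that choice. It favoured high untreated values at 5 h and low ones at 24 h. The irradiation log2 fold change was larger at 24 h than at 5 h in 7 of 8 members, by 0.27 (THBS1) to 1.70 (SERPINB2), and smaller by 0.44 for PLAU. The median of that difference over all genes was -0.01. These differences contain the contrast that chose the set and were not tested.

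**Figure D2:**
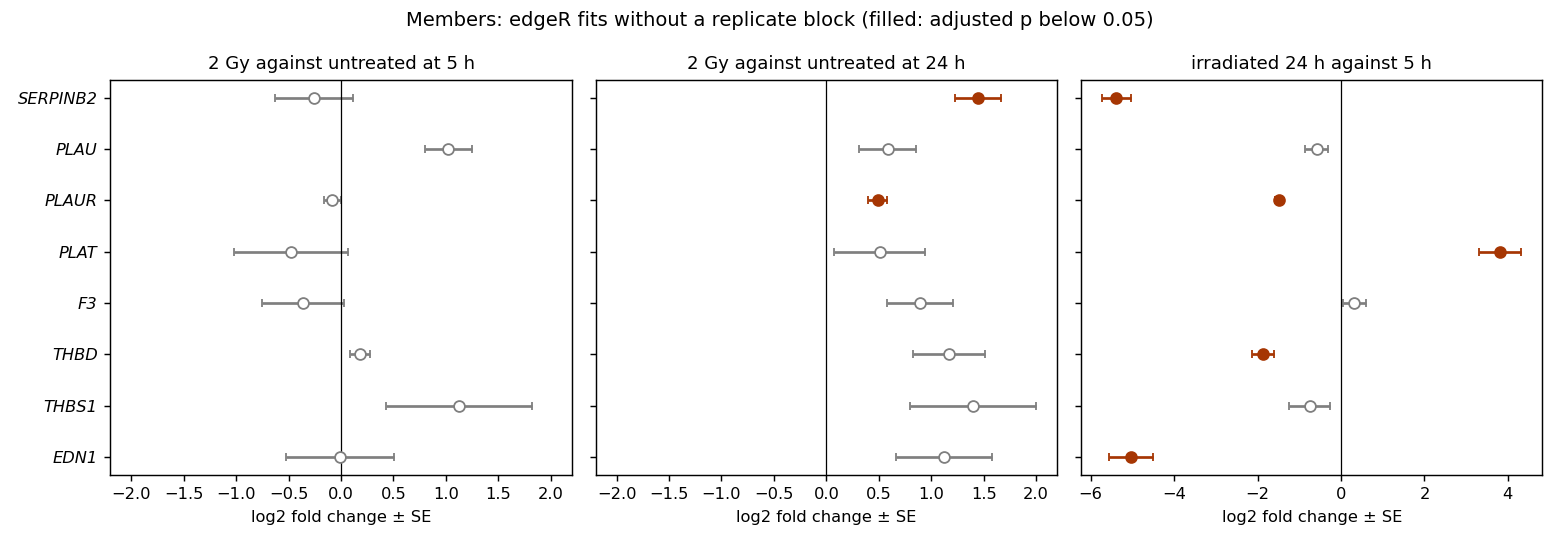
Log2 fold change ± SE of each member in the 3 tested comparisons (edgeR, no replicate block), with filled points for an adjusted p below 0.05 and a wider axis in the right panel. At 24 h all 8 points lie above 0 and those of SERPINB2 (1.44) and PLAUR (0.49) are filled, and in irradiated cells over time SERPINB2 (-5.39) and EDN1 (-5.04) lie farthest to the left.

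PLAU, the urokinase-type activator (ENSLAFG00000016662, scaffold 10, 55795542 to 55799500, plus strand, 1218 bp of exons), was measured at 23.5, 15.4 and 18.1 CPM in untreated replicates 1, 2 and 3 at 5 h. Irradiated replicates 1, 2 and 3 had 50.5, 37.2 and 28.9 CPM. Every irradiated library was above every untreated one, a separation found with higher irradiated values in 10.5% of all genes. The log2 fold change was 1.02 ± 0.22, a 2.03-fold difference (adjusted p = 0.078), and 1.01 ± 0.08 with the block (adjusted p = 2.1e-07). PLAU passed in DESeq2 (adjusted p = 0.00020) and without irradiated replicate 3 (1.19, adjusted p = 0.028).

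PLAU at 24 h was 17.5, 12.6 and 18.5 CPM in untreated and 15.3, 27.4 and 30.3 CPM in irradiated libraries. The groups overlapped through irradiated replicate 1, which lay below untreated replicates 1 and 3. The log2 fold change of 0.58 ± 0.27 did not pass (adjusted p = 0.26), whereas without irradiated replicate 1 it was 0.82 (adjusted p = 0.043). Between the times, PLAU had the smallest log2 fold change of the members in untreated cells, -0.16 ± 0.19, and this value turned to 0.27 when library totals replaced composition scaling. In irradiated cells it was -0.59 ± 0.27 (adjusted p = 0.084). It passed there with DESeq2 (-0.65, adjusted p = 0.024), without irradiated 5 h replicate 3 (-0.80, adjusted p = 0.041) and without irradiated 24 h replicate 3 (-0.85, adjusted p = 0.024).

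PLAUR, the urokinase receptor (ENSLAFG00000004838, scaffold 4, 1979765 to 1995681, minus strand, 1008 bp of exons), was the steadiest member within groups. At 5 h it had 229, 237 and 229 CPM in untreated and 237, 200 and 225 CPM in irradiated libraries. The groups overlapped, with a log2 fold change of -0.08 ± 0.08 (adjusted p = 0.73, and 0.29 with the block). At 24 h the levels were 46.9, 55.4 and 55.4 CPM in untreated and 70.9, 71.1 and 79.5 CPM in irradiated libraries. All irradiated libraries exceeded all untreated ones, by 0.49 ± 0.09 on the log2 scale or 1.40-fold (adjusted p = 0.023).

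The PLAUR call at 24 h was narrow. Leaving out untreated replicate 1, 2 or 3 or irradiated replicate 2 or 3 gave log2 fold changes of 0.43 to 0.53 with adjusted p from 0.059 to 0.103. Over time PLAUR fell in irradiated cells by 1.49 ± 0.10 on the log2 scale, or 2.80-fold (adjusted p = 1.0e-05), with no overlap between the times. In untreated cells the log2 fold change was -2.07 ± 0.08, or 4.21-fold lower at 24 h.

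PLAT, the tissue-type activator (ENSLAFG00000010176, scaffold 22, 20128668 to 20141293, plus strand, 1683 bp of exons), was barely detected at 5 h. It had 9, 7 and 13 counts in untreated libraries (0.339, 0.222 and 0.428 CPM) and 5, 12 and 4 counts in irradiated ones (0.159, 0.453 and 0.124 CPM). A difference between these groups was not detectable at this depth (log2 fold change -0.48 ± 0.54, adjusted p = 0.77, and 0.60 with the block). At 24 h it had 73, 107 and 54 counts in untreated libraries (2.40, 3.08 and 1.23 CPM) and 111, 81 and 34 counts in irradiated libraries (4.17, 3.57 and 1.71 CPM). The groups overlapped and the log2 fold change was 0.51 ± 0.43 (adjusted p = 0.56).

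PLAT rose with time in irradiated cells, the 1 member called higher there. Its log2 fold change there was 3.82 ± 0.51, or 14.1-fold (adjusted p = 0.00028), and no library at 5 h reached the lowest at 24 h. In untreated cells it was 2.82 ± 0.45. The 9 endothelial markers summed to 328 to 341 CPM in irradiated libraries at 5 h and 796 to 932 CPM at 24 h, mostly PECAM1, an adhesion molecule that leukocytes and platelets also carry, with 317 ± 7.80 and 825 ± 76.0 CPM. Of 8 endothelial markers tested over time in irradiated cells, 6 were called higher and 1 lower, beside 35.3% and 30.6% of all genes. Their median log2 fold change was 1.40 against 0.10 over all genes. A rise in the median was not particular to the endothelial list. Of 5 stromal (connective tissue) markers tested in the same comparison, 3 were called higher and 2 lower, and their median log2 fold change was larger than the endothelial one. The receptor TIE1 went from 0.169 ± 0.0980 to 1.47 ± 0.156 CPM and TEK from 0.268 ± 0.0961 to 1.07 ± 0.572 CPM, while CDH5, the endothelial cadherin, went from 4.46 ± 1.01 to 1.30 ± 0.341 CPM. The part of endothelial or stromal cells in the PLAT result was not tested.

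SERPINB2, the inhibitor PAI-2 (ENSLAFG00000008537, scaffold 4, 36031231 to 36041297, minus strand, 1248 bp of exons), had 1523, 927 and 2313 CPM in untreated libraries at 5 h. Untreated libraries at 24 h had 10.3, 14.2 and 8.54 CPM. The lowest library at 5 h was far above the highest at 24 h, and the fitted log2 fold change of -7.10 ± 0.40 corresponds to a level 137-fold lower. This is the contrast that chose the gene. In irradiated cells the levels were 1333, 786 and 1889 CPM at 5 h and 23.6, 30.7 and 35.6 CPM at 24 h. Here too the times did not overlap, and SERPINB2 was 41.9-fold lower at 24 h (log2 fold change -5.39 ± 0.34, adjusted p = 6.9e-06).

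At 24 h every irradiated library had more SERPINB2 than every untreated one, 2.72-fold in the fit (log2 fold change 1.44 ± 0.22, adjusted p = 0.012). The gene was chosen partly for its low values in these untreated libraries. The adjusted p was 0.052 without untreated replicate 1 (log2 fold change 1.43) and 0.057 without irradiated replicate 2 (1.41). At 5 h the groups overlapped broadly, with a log2 fold change of -0.26 ± 0.37 (adjusted p = 0.83). Each irradiated library was nevertheless below the untreated library of its own number, by 0.19, 0.24 and 0.29 on the log2 scale for numbers 1, 2 and 3. The blocked log2 fold change was -0.25 ± 0.04 (adjusted p = 0.00014).

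The summed neutrophil markers were lower at 24 h than at 5 h, as were SERPINB2 and PLAUR, and the summed monocyte and macrophage markers were higher in irradiated than in untreated cells at 24 h, with some of the list level between these groups. In irradiated cells 5 of 8 neutrophil markers were called lower at 24 h than at 5 h, with a median log2 fold change of -1.24. In the same comparison 2 of 6 monocyte and macrophage markers were called higher. Of all genes, 30.6% were called lower there and 35.3% higher. After irradiation at 24 h 2 of 6 monocyte and macrophage markers were called higher, beside 1.8% of all genes. ITGAM, an integrin subunit that neutrophils carry too, had 1226 ± 74.1 CPM in untreated and 3079 ± 304 CPM in irradiated cells at 24 h. CSF1R, the receptor that marks the monocyte lineage, had 1397 ± 107 and 1405 ± 98.9 CPM in these groups, and MRC1, a macrophage mannose receptor, 64.2 ± 25.6 and 60.3 ± 26.2 CPM. The part of these cell types in the members' changes was not tested.

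The genes with a symbol nearest SERPINB2 on either side on scaffold 4 belong to the same clade of serpins. The nearest, SERPINB10 (36002890 to 36023575, minus strand), had means of 22.1 CPM in untreated and 23.6 CPM in irradiated cells at 5 h, and 5.51 and 11.7 CPM at 24 h. It rose with irradiation at 24 h (log2 fold change 1.09 ± 0.12, adjusted p = 0.0039) and fell with time in irradiated cells (-0.92 ± 0.21, adjusted p = 0.0042). SERPINB8, an inhibitor of furin (35956474 to 35964353), also fell with time in irradiated cells (-1.34 ± 0.18, adjusted p = 0.00028). SERPINB7, SERPINB11, SERPINB13 and SERPINB5, on the other side, had group means of at most 1.25 CPM. Between SERPINB8 and SERPINB10 lies a gene without a symbol (ENSLAFG00000022985), with group means of 0.136 to 0.222 CPM. CDH7, not a serpin, lies beyond SERPINB8.

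F3, tissue factor (ENSLAFG00000012412, scaffold 60, 7115278 to 7126406, plus strand, 873 bp of exons), was low in every library, with 24 to 76 counts. At 5 h it had 1.58, 0.823 and 2.50 CPM in untreated and 1.47, 0.907 and 1.43 CPM in irradiated libraries. The irradiated values lay within the untreated range, and the log2 fold change was -0.36 ± 0.39 (adjusted p = 0.76, and 0.31 with the block). At 24 h the levels were 0.889, 0.691 and 0.822 CPM in untreated and 1.16, 1.63 and 1.71 CPM in irradiated libraries. The groups did not overlap, but the log2 fold change of 0.90 ± 0.32 did not pass (adjusted p = 0.16). Over time F3 had 0.32 ± 0.28 in irradiated cells (adjusted p = 0.34) and -0.95 ± 0.41 in untreated cells, on the log2 scale.

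THBD, thrombomodulin (ENSLAFG00000012832, scaffold 19, 3373862 to 3375593, plus strand, 1731 bp of exons), was at 149, 144 and 170 CPM in untreated and 187, 158 and 184 CPM in irradiated libraries at 5 h. The groups overlapped, and each irradiated library was above the untreated library of its number, by 0.33, 0.14 and 0.12 on the log2 scale. The log2 fold change was 0.18 ± 0.09 (adjusted p = 0.47), or 0.18 ± 0.05 with the block (adjusted p = 0.013). At 24 h THBD had 13.04, 20.7 and 26.8 CPM in untreated and 33.1, 33.7 and 69.8 CPM in irradiated libraries. Irradiated replicate 3 was the highest by far, and the groups did not overlap.

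The THBD difference at 24 h was 2.25-fold and missed the threshold (log2 fold change 1.17 ± 0.34, adjusted p = 0.095). It passed in DESeq2 (1.19, adjusted p = 0.0067), with all 12 libraries in 1 fit (1.18, adjusted p = 0.018) and with the replicate block (1.14, adjusted p = 0.012), although replicate numbers did not pair the libraries at 24 h. Between the times THBD fell in irradiated cells by 1.87 ± 0.27 on the log2 scale, or 3.65-fold (adjusted p = 0.00041). In untreated cells the log2 fold change was -2.87 ± 0.21, or 7.31-fold lower at 24 h.

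THBS1, thrombospondin-1 (ENSLAFG00000002650, scaffold 64, 9131953 to 9145116, plus strand, 3507 bp of exons), varied more between libraries of a group than any other member in 3 of the 4 groups. In untreated cells at 5 h it had 57.7, 65.3 and 319 CPM, a 5.52-fold span, where the median span over all genes was 1.22-fold. Irradiated libraries at 5 h had 202, 206 and 559 CPM. Replicate 3 was the highest in both groups, and the groups overlapped through untreated replicate 3.

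Within each number the irradiated library had more THBS1 than the untreated one, by 1.81, 1.66 and 0.81 on the log2 scale for numbers 1, 2 and 3. The log2 fold change at 5 h was 1.12 ± 0.69 without the block (adjusted p = 0.57) and 1.38 ± 0.12 with it (adjusted p = 3.4e-07). Without the libraries numbered 3 of both groups it was 1.71 (adjusted p = 0.00037), a setting added after the data were seen. At 24 h THBS1 had 42.1, 130 and 32.2 CPM in untreated and 303, 125 and 106 CPM in irradiated libraries. The groups overlapped through untreated replicate 2, and the log2 fold change of 1.40 ± 0.60 did not pass (adjusted p = 0.24).

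Over time the log2 fold change of THBS1 was -0.75 ± 0.49 in irradiated cells (adjusted p = 0.20) and -1.04 ± 0.72 in untreated cells. The former was -1.48 (adjusted p = 0.016) without irradiated 24 h replicate 1 and -0.14 without irradiated 5 h replicate 3. Platelet markers, 7 of 8 of which were in the tables, summed to 64.1 to 138 CPM in untreated and 84.2 to 159 CPM in irradiated libraries at 5 h. At 24 h the sums were 48.0 to 64.2 and 102 to 132 CPM, with 3 of 7 called higher after irradiation, beside 1.8% of all genes. Their part in the THBS1 values was not tested.

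**Figure D3:**
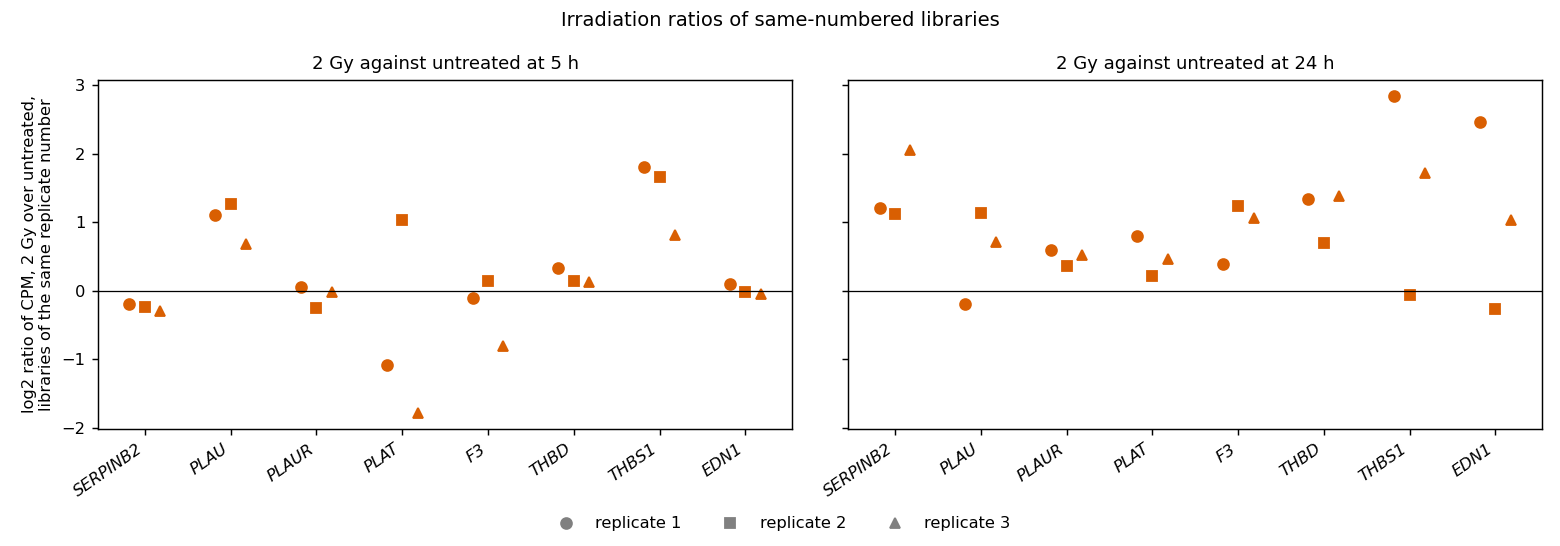
Log2 ratio of CPM of each irradiated library to the untreated library of the same number (symbols), for the 8 members at 5 h (left) and 24 h (right). At 5 h the 3 ratios of THBS1 (0.81 to 1.81) and PLAU (0.68 to 1.27) lie above 0 and those of SERPINB2 (-0.29 to -0.19) below. At 24 h, where numbers did not pair the libraries, EDN1 ranges from -0.27 to 2.46.

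EDN1, the endothelin-1 precursor (ENSLAFG00000007305, scaffold 44, 17336098 to 17341936, minus strand, 609 bp of exons), had 110, 85.5 and 271 CPM in untreated libraries at 5 h. Irradiated libraries at 5 h had 117, 84.2 and 263 CPM. The groups were nearly the same library by library, with ratios within a number of 0.09, -0.02 and -0.04 on the log2 scale and replicate 3 the highest in both. The fit gave -0.01 ± 0.52 (adjusted p = 1.0), and with the block -0.003 ± 0.05 (adjusted p = 0.97).

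At 24 h EDN1 had 1.28, 3.08 and 1.64 CPM in untreated and 7.06, 2.56 and 3.37 CPM in irradiated libraries. The groups overlapped through untreated replicate 2, and the log2 fold change of 1.12 ± 0.46 did not pass (adjusted p = 0.21). In irradiated cells EDN1 was 32.9-fold lower at 24 h than at 5 h, with no overlap (log2 fold change -5.04 ± 0.53, adjusted p = 8.2e-05). In untreated cells, on which the gene was chosen, the log2 fold change was -6.21 ± 0.53, or 73.9-fold lower. Of the 9 endothelial markers, 6 were under 1 CPM in untreated cells at 5 h, and the other 3 were CDH5 at 5.80 ± 0.465, ESAM at 14.1 ± 0.873 and PECAM1 at 363 ± 20.2 CPM. Their part in the EDN1 values was not tested.

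The other genes of these pathways were taken from 7 lists with 81 genes, of which 66 were in the tables. At 5 h 1 of 47 tested list genes was called, beside 1.6% of all genes. It was F2RL1, a protease-activated receptor, with 1.62 ± 0.266 CPM in untreated and 0.665 ± 0.0437 CPM in irradiated cells (-1.30 ± 0.23 on the log2 scale, adjusted p = 0.035). F2RL1 lost its call when any 1 of the 6 libraries was left out (-1.43 to -1.21, adjusted p = 0.052 to 0.18). A single fit of the 12 libraries also ended it (adjusted p = 0.18). With the block 2 list genes were called higher and 8 lower, beside 10.6% and 9.92% of all genes in that fit. The median log2 fold change of the 47 genes was -0.02, against -0.001 over all genes. At 24 h 2 of 58 were called higher and 2 lower, beside 1.8% and 4.94% of all genes, with a median of 0.24 against 0.01 over all genes. In irradiated cells over time 19 of 52 were higher and 20 lower, beside 35.3% and 30.6% of all genes, with a median of 0.0047 against 0.10 over all genes. The counts of the single lists over time stand against the same shares.

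In the plasminogen system, S100A10 and ANXA2, which together form a plasminogen receptor on cell surfaces, fell with time in irradiated cells, with log2 fold changes of -3.10 ± 0.10 and -2.11 ± 0.14 (adjusted p = 1.1e-06 and 7.8e-06). ENO1, a glycolytic enzyme that also binds plasminogen at the surface, fell by 1.504 ± 0.137 on that scale. Of 11 plasminogen system genes tested over time, 4 were called higher and 5 lower. At 24 h S100A10 was lower in irradiated cells (-0.47 ± 0.09, adjusted p = 0.025), a call lost when any library other than irradiated replicate 1 was left out (-0.52 to -0.43, adjusted p = 0.073 to 0.115). PLG, plasminogen itself, is a liver product and had group means of 0.879 to 1.88 CPM. MRC2, a collagen receptor that associates with PLAUR, had a log2 fold change of -0.27 ± 0.09 at 5 h (adjusted p = 0.28, and 0.00067 with the block).

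Among the other clade B serpins, SERPINB9, the inhibitor of granzyme B, was lower in irradiated cells at 24 h, with 34.7 ± 0.182 CPM in untreated and 18.6 ± 1.43 CPM in irradiated libraries (log2 fold change -0.90 ± 0.09, adjusted p = 0.0028). It was not called at 5 h (-0.60 ± 0.19, adjusted p = 0.25, and 0.00014 with the block). SERPINB5 had 0.201 ± 0.140 and 0.914 ± 0.0641 CPM at 5 h, with a log2 fold change of 2.14 ± 0.41 (adjusted p = 0.051, and 0.0017 with the block). In irradiated cells 5 of 8 tested clade B serpins were called lower with time, where 30.6% of all genes were, and the median of the list was -0.84 against 0.10 over all genes.

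Clotting factor genes split by direction over time. F13A1, the transglutaminase subunit of factor XIII that monocytes and platelets hold, was at 61.2 ± 5.49 CPM in irradiated cells at 5 h and fell to 10.2 ± 1.30 CPM (-2.49 ± 0.13 on the log2 scale, adjusted p = 3.2e-06). FGL2, a membrane-bound prothrombinase, fell from 3704 ± 312 to 590.2 ± 170 CPM (-2.55 ± 0.21, adjusted p = 2.4e-05). F12, the contact factor XII, rose from 0.306 ± 0.132 to 2.57 ± 0.407 CPM (3.17 ± 0.33, adjusted p = 8.3e-05). Of 9 tested, 5 rose and 3 fell. The 5 that rose were at 0.187 to 1.66 CPM in irradiated cells at 5 h, and the 3 that fell at 61.2 to 3704 CPM. At 24 h VWF, the platelet-tethering glycoprotein, rose with irradiation from 12.3 ± 2.32 to 20.8 ± 4.28 CPM (0.76 ± 0.17, adjusted p = 0.048). Leaving out any library other than irradiated replicate 1 ended that call (0.57 to 0.86, adjusted p = 0.084 to 0.14), as did all 12 libraries in 1 fit (adjusted p = 0.12) and no filter on low counts (adjusted p = 0.062).

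Of 7 anticoagulant genes tested over time in irradiated cells, 2 rose and 2 fell. ANXA5, which shields phosphatidylserine, fell by 2.04 ± 0.27 on the log2 scale, and SERPINA5, the protein C inhibitor, and TFPI2 rose by 2.17 ± 0.29 and 2.31 ± 0.37. LMAN1 and MCFD2, the cargo receptor pair for factors V and VIII, rose by 1.31 ± 0.16 and 1.15 ± 0.15, and GGCX, the vitamin K-dependent carboxylase, by 0.60 ± 0.10. F2R, the main thrombin receptor, had group means near 3 CPM and log2 fold changes of 0.06 ± 0.26 at 5 h, -0.23 ± 0.20 at 24 h and -0.003 ± 0.20 over time (adjusted p = 0.95, 0.57 and 0.99).

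THBS1 has CD36, CD47 and the integrin subunit ITGAV among its receptors. CD36 rose with time in irradiated cells (0.89 ± 0.12, adjusted p = 0.00035), and CD47 and ITGAV fell (-1.07 ± 0.15, adjusted p = 0.00033, and -1.02 ± 0.10, adjusted p = 4.4e-05). After irradiation the smallest adjusted p in this list was 0.68 at 5 h (4 genes tested, median log2 fold change 0.04) and 0.23 at 24 h (6 genes tested, median 0.44).

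In the endothelin system 2 of 5 tested genes were called higher and 2 lower over time in irradiated cells, where 35.3% of all genes were called higher and 30.6% lower. ECE1, which cleaves the EDN1 precursor to the active peptide, fell in irradiated cells from 263 ± 10.2 CPM at 5 h to 71.4 ± 15.98 CPM at 24 h (-1.78 ± 0.16 on the log2 scale, adjusted p = 3.3e-05). The related enzyme ECE2 fell by 1.53 ± 0.18, and KEL, a blood group protease that cleaves endothelin-3, rose by 2.80 ± 0.33. The receptors were scarce. EDNRA had 2.03 ± 0.676 CPM in untreated and 0.948 ± 0.473 CPM in irradiated cells at 5 h (-1.09 ± 0.37, adjusted p = 0.27, and 0.0014 with the block), and EDNRB had 7 counts in all 6 libraries at 5 h together. At 24 h the smallest adjusted p among 6 tested genes of this list after irradiation was 0.25, that of KEL (-0.67 ± 0.30).

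**Figure D4:**
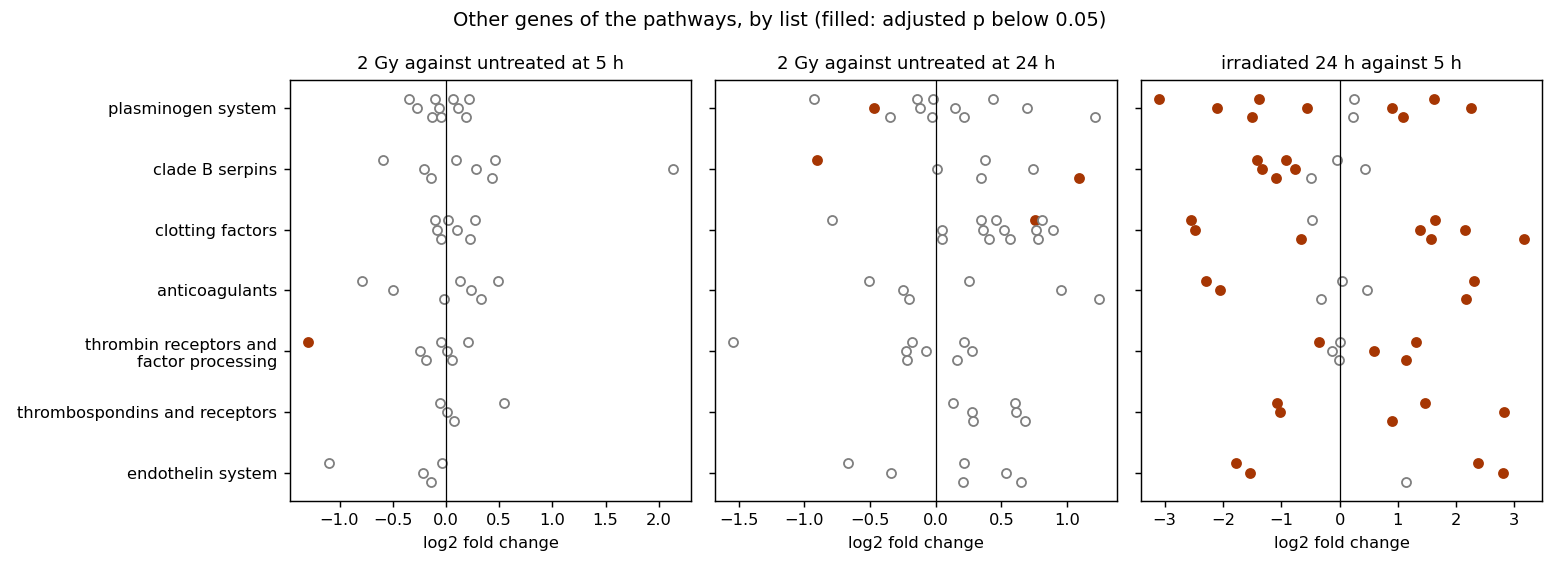
Log2 fold change of each tested gene of the 7 lists in the 3 tested comparisons (horizontal axes differ), with filled points for an adjusted p below 0.05. At 5 h 1 of 47 points is filled and at 24 h 4 of 58, while over time in irradiated cells 39 of 52 are filled, 19 to the right and 20 to the left of 0.

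Across the 12 libraries SERPINB2, PLAUR, THBD and EDN1 had similar profiles, and THBS1, as high as EDN1 and THBD at 5 h in CPM, did not share them as closely. Pearson's r of log2 CPM was 0.99 between SERPINB2 and PLAUR, 0.985 between SERPINB2 and EDN1 and 0.96 between SERPINB2 and THBD over libraries of which 6 came from each time. For THBS1 it was 0.47 with SERPINB2, 0.43 with PLAUR, 0.48 with THBD and 0.55 with EDN1. PLAT ran the other way, with r of -0.91 with PLAUR and -0.90 with SERPINB2. Of the deviations from group means, those of THBS1 and EDN1 had r = 0.92, those of SERPINB2 and F3 0.80, those of PLAUR and THBD 0.80 and those of PLAU and THBS1 -0.68. For SERPINB2 the r of these deviations was 0.34 with PLAUR, 0.65 with EDN1 and 0.30 with THBD. For THBS1 it was 0.60 with SERPINB2, 0.01 with PLAUR and -0.06 with THBD. The r over 12 libraries thus hold the difference between the times, on which the set was chosen in untreated cells. All are descriptions over 12 libraries that share group structure and scaling.

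Among 10293 genes with a symbol and a mean of at least 1 CPM, the 3 most like each member by r over the 12 libraries were as follows. SERPINB2 was closest to TMEM120A (r = 0.996), UBE2E1 and OSGIN2, and EDN1 to GBP2 (0.995), ADA and PHOSPHO1. PLAUR was closest to FGR (0.995), ITSN1 and TLN1, and THBD to MAP2K3 (0.990), BHLHE40 and PKMYT1. PLAT was closest to TTLL1 (0.979), SEMA6A and MMAA. The members with weaker time differences had looser partners, PLAU with SNORD27 (0.932), ASH1L and KIF13B, F3 with SDCBP2 (0.914), PTGS2 and TUBB1, and THBS1 with PPM1B (0.910), NR1H3 and IL10.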

How the data were processed

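RNA of 12 libraries was made into stranded, ribosomal-RNA-depleted libraries, per the labels' protocols. The authors deposited raw read counts per gene in 1 table per time point, per the file headers, on assembly L_africana_Jul_2009. The sources used here name no aligner or counting program and do not say if strand was used, so genes that overlap cannot be separated, and it is not stated whether coordinates count from 0 or 1. Of protein coding models, 86.4% have exon lengths divisible by 3 (coding length). The 24 other per-sample columns were not used, and neither were sequences.

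Each comparison of 6 libraries was fitted with edgeR 4.0.16 in R 4.3.3 (TMM scaling, filterByExpr, quasi-likelihood F test, Benjamini-Hochberg adjustment at 0.05 over all genes tested), and was tested on simulated data. Alternatives were DESeq2 1.42.0, other scaling and filters, 1 fit of 12 libraries, a replicate block and leaving out libraries. Log2 CPM for correlations used a prior count of 2.

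Deviations from group means of same-numbered libraries correlated at 5 h with r from 0.466 to 0.681 over 11803 genes with a mean of at least 1 CPM, and from 0.095 to 0.342 over 15200 genes passing filterByExpr. Over the 11803 genes r was -0.498 to 0.752 at 24 h and -0.107 to 0.078 in irradiated cells over time. The numbers were therefore treated as pairing the libraries at 5 h, a choice made after blocked calls had been seen. At 24 h untreated replicates 1, 2 and 3 correlated most with irradiated replicates 2, 1 and 3 (r = 0.449, 0.746 and 0.752). No fit used that order, so blocked values and same-number ratios at 24 h may set unmatched libraries side by side.

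Beside the members, the text names up to 3 genes per list and comparison with the smallest p, plus EDNRA, EDNRB, ECE1 and F2R, and the 3 genes most like each member. Neighbours of SERPINB2 and the markers named singly were chosen after their values were seen. Counts over the lists leave out 1 further gene, which is not reported here. Members and lists were chosen with earlier results of these data known.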

Additional observations from a re-analysis of the deposited data

How the results depend on the processing

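Of 350 repeated values of the members' log2 fold changes, 318 kept their direction and their side of the threshold, 7 lost a call, 15 gained one, 7 changed sign and 3 untested ones moved by more than the spread. Of 388 repeated values of named list genes, 353 kept both, 21 lost a call, 8 gained one and 6 changed sign. At 5 h leaving out 1 library gave -0.60 to 0.11 for SERPINB2, -0.687 to 0.0891 for F3 and -0.64 to 0.65 for EDN1, and EDN1 was 0.0253 without the libraries numbered 3. F2R was -0.177 to 0.319 at 5 h. In irradiated cells over time F2R was 0.332 with library totals, 0.101 with the stricter filter and -0.176 to 0.0528 without 1 library. Members called at 5 h (0) became 1 with DESeq2, 4 with the replicate block, 0 to 1 without 1 library and 1 without the libraries numbered 3. List genes called at 5 h (1) became 2 with DESeq2, 2 with library totals, 0 with the stricter filter, 0 in 1 fit of 12 libraries, 10 with the replicate block and 0 to 1 without 1 library. Calls over all genes at 5 h (207) became 444 with DESeq2, 2655 with the replicate block and 86 to 191 without 1 library. At 24 h members called (2) were 0 to 3 without 1 library, and list genes (4) were 7 with DESeq2 and 2 to 5 without 1 library. Calls over all genes at 24 h (968) became 1715 with DESeq2, 1670 in 1 fit of 12 libraries and 293 to 1061 without 1 library. In irradiated cells over time 5 or 6 members were called in each setting. With library totals the untreated time values of PLAU, PLAUR and THBD were 0.27, -1.66 and -2.46. At 24 h and over time the replicate block changed the call of 1 member, THBD at 24 h, that of S100A10 at 24 h (adjusted p = 0.052) and, over time in irradiated cells, those of VWF (0.098 without and 0.019 with the block) and SERPINB9 (0.052 and 0.042). PLAT at 5 h was dropped by the stricter filter and without the libraries numbered 3, and rests on 4 to 13 counts per library. The cause of these differences was not tested.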
